A study of Saccharomyces cerevisiae with 19 samples.

Results

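The 38 genes described here encode the proteasome of budding yeast, Saccharomyces cerevisiae, and the factors that build, cap or regulate it. They are a fixed list of gene names, proposed with earlier results of these data known, and were looked up among the 6863 features that the study's 2 RNA-seq count tables share. There are 7 genes of the core alpha ring, 7 of the core beta ring, 6 of the base ATPase ring, 4 of the remaining base and its ubiquitin receptors, 9 of the lid, and 5 accessory or regulatory genes. All 38 passed the filter on low counts, which kept 6501 features. They lie on 13 chromosomes.

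The study asked what Pcf11, a subunit of the machinery that cleaves and polyadenylates mRNA ends and helps terminate transcription, does to the transcriptome. The labels give S288C and CEN.PK2-1C as the background of every culture and 36 h as the time, with growth in liquid medium at 30 °C and 220 rpm. There were 3 biological replicates of each of 5 strains. WT was the parent. Strain ΔPcf11 is labelled as a deletion of PCF11, and Pcf11-AARR carries changes at 4 conserved Pcf11 residues. Pcf11-OE1 and Pcf11-OE2 overexpress PCF11, from a strong promoter (TEF1p) with terminator GRS1t or a weak promoter (CDC60p) with terminator DITIt. The labels do not say which pair belongs to which strain, or whether a strain was 1 clone. Each group is a bulk culture, so that fewer cells of a kind and less RNA per cell cannot be told apart. In addition, 2 CLIP immunoprecipitations (IPs), which recover RNA bound to Flag-tagged Pcf11, and 2 inputs came from cells labelled as overexpressing Flag-Pcf11, although the genotype tag of the inputs reads WT.

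The proteasome degrades proteins tagged with ubiquitin. Its barrel-shaped core holds alpha rings as gates around beta rings that carry the proteolytic sites, and a base with an ATPase ring unfolds substrates while a lid removes ubiquitin. In yeast the transcription factor Rpn4 activates most subunit genes through a promoter element called PACE, and Rpn4 is itself degraded by the proteasome, so that the subunits are usually made together.

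The PACE element, GGTGGCAAA, was searched on both strands in the 300 bases before the start codon of each RefSeq gene (assembly R64, the build whose chromosome accessions the count tables carry). It was found in 28 of 38 proteasome promoters and in 73 of 6001 promoters in all, or 1.22%, those 28 included. No member had more than 1 copy. The first base lay 84 to 183 bases before the start codon, with a median of 122, and 20 of the 28 copies read in the direction of the gene. The 10 members without an exact copy were PRE5, PUP1, RPN4, RPN8, RPN10, RPN13, RPN14, SEM1, BLM10 and UMP1. The shorter core GTGGC, which lies inside GGTGGCAAA, was found in 36 of 38 members and in 23.3% of all promoters.

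The sites of 10 members are given here because the results turn on these genes. They read 5′ to 3′ on the strand of the gene, with 10 bases on each side. Capitals mark the element, which appears as its reverse complement, TTTGCCACC, in PRE4, PRE6, RPT4 and RPN7.
PRE1 (chrV:177683-177711, plus strand): aaatctttacGGTGGCAAAaaataaagaa
PRE3 (chrX:435035-435063, plus strand): aacggaatccGGTGGCAAAaaagggaaaa
PRE4 (chrVI:249959-249987, minus strand): tggtttagaaTTTGCCACCttaaatacgt
PRE6 (chrXV:255218-255246, plus strand): cgaagattctTTTGCCACCggaagggaaa
PRE8 (chrXIII:86841-86869, minus strand): agcttattaaGGTGGCAAAattgtccccg
RPT4 (chrXV:813802-813830, minus strand): aatagtggaaTTTGCCACCgaagggaaag
RPN2 (chrIX:220801-220829, minus strand): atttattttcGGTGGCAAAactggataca
RPN5 (chrIV:190776-190804, plus strand): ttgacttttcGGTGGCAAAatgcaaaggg
RPN7 (chrXVI:742290-742318, plus strand): ataagttaagTTTGCCACCcattgaggat
ECM29 (chrVIII:39943-39971, plus strand): gccttttcttGGTGGCAAAaaaaaggtac
The flanking bases differed between members. The element is the same in each because only exact copies were searched for.

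The libraries held 26211192 to 46296634 counts. The authors' mapped percent was 83.6 to 95.3 in WT, 56.4 to 61.9 in ΔPcf11 and 49.9 to 91.6 in Pcf11-AARR, and it was not used here for the overexpression strains. Levels are CPM, the counts of a gene scaled to a common library size with TMM factors, and every adjusted p comes from edgeR's quasi-likelihood test over all 6501 features with a threshold of 0.05. PCF11 itself, as the check of the labels, stood at 17.4, 13.8 and 13.9 CPM in WT and at 12.1, 13.7 and 12.6 CPM in the libraries labelled ΔPcf11, which in log2 terms was -0.23 ± 0.13 (SE), edgeR adjusted p = 0.114. The reads of the supposedly deleted gene thus go against that label, and every statement on ΔPcf11 concerns the libraries labelled so. PCF11 was at 20.1 to 22.3 CPM in Pcf11-AARR, 560 to 622 CPM in Pcf11-OE1 and 66.9 to 88.7 CPM in Pcf11-OE2.

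Most members' features run past the coding sequence, while those of RPN6, RPN12 and RPN14 end with it. Of the 38 features, 30 share bases with a neighbouring gene, 23 of them over at least 10 percent of their length. The library kit was stranded per the labels, but the counts were not stated to use strand. In a feature with faulty coordinates that covers genes on both strands, the count was 1.78 to 2.11 times the sum of the inner genes on its own strand and 0.798 to 0.848 of the sum over both strands. Reads from a member and from an overlapping gene therefore cannot be told apart here, and neighbours' values are given beside most of the members described in detail. The 8 members with no overlap are PRE3, PRE6, RPT2, RPT5, RPN5, RPN6, RPN7 and RPN14.

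**Figure D1:**
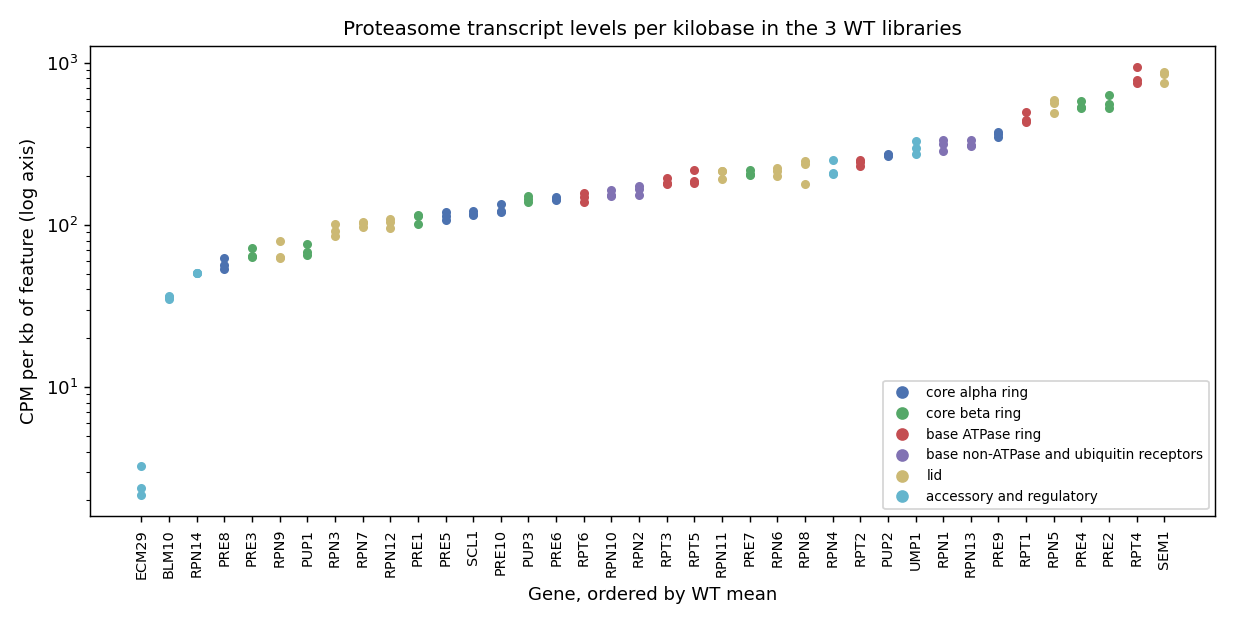
CPM per kilobase of feature (log axis) for each of the 38 genes in the 3 WT libraries, 1 point per library, ordered by the WT mean and coloured by role. ECM29 sits alone at the bottom near 2.61 CPM per kb, most subunits lie between 57.5 and 572, and RPT4 and SEM1 are at the top.

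In WT the 38 members were far from equal in transcript level. Per kilobase of feature, the median was 174 CPM, with quartiles of 105 and 293 CPM. The highest were SEM1, a small acidic lid subunit, at 827 ± 68.4 CPM per kb (SD, n = 3), and RPT4, a base ATPase, at 821 ± 101 CPM per kb. The lowest were ECM29, which tethers the core to its regulatory cap, at 2.61 ± 0.587 CPM per kb, and BLM10, an alternative cap of the core, at 35.6 ± 0.93 CPM per kb. The highest mean was 316 times the lowest, but ECM29 and BLM10 are accessory genes. Among the 33 subunits the lowest was PRE8, at 53.5 to 62.3 CPM per kb. Of the 37 neighbouring pairs in this order, 26 overlapped between libraries, so most adjacent ranks did not differ beyond their spread, while ECM29, BLM10 and RPN14 were each separated from the next gene.

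PRE2, the beta subunit with the chymotrypsin-like activity, stood at 572 CPM per kb in WT, and PRE3 and PUP1, which carry the caspase-like and trypsin-like activities, at 66.4 and 69.7 CPM per kb. The order changed little at its ends in the other strains: ECM29 was lowest in all 5, and SEM1 or RPT4 highest. SEM1 reached 1909 CPM per kb in ΔPcf11, and RPT4 was at 1029 and 1022 CPM per kb in the overexpression strains.

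As a group, the members took a larger share of all counts outside WT, 1.51 to 1.63% in the 12 libraries of the other strains against 1.12 to 1.2% in the 3 WT libraries, without overlap. After TMM scaling the members' median log2 difference from the WT mean was -0.04 to 0.04 in the WT libraries and 0.15 to 0.35 in the others. The fitted medians over the members were 0.27, 0.23, 0.20 and 0.23 in the libraries of the 2 mutant strains (ΔPcf11, then Pcf11-AARR) and the 2 overexpression strains (OE1, then OE2) against WT, an order kept wherever 4 values stand together, where the medians over all 6501 features were 0.07, 0.05, 0.04 and 0.02. The members' median lay 0.16 to 0.21 above that of all features, both with TMM factors and with total counts as the only scale. Total counts alone raised the median of all features itself to 0.21, 0.41, 0.34 and 0.28. The changes below are relative to the TMM scale.

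This median hides a split among the members. Of the 38, edgeR called 19 higher and 5 lower in ΔPcf11 against WT, where 34.4% of all features were called higher and 29.2% lower. The lower count became 3 without WT replicate 3 or ΔPcf11 replicate 3, and 8 without Pcf11-AARR replicate 3, a library outside the comparison. In Pcf11-AARR against WT it called 19 higher and 5 lower, beside 33.2% and 30.2% of all features, with 3 lower without WT replicate 3. In Pcf11-OE1 against WT 17 were higher and 8 lower, beside 35.6% and 32.0%, and in Pcf11-OE2 against WT 17 were higher and 7 lower, beside 33.7% and 31.1%, with 11 lower without Pcf11-AARR replicate 3. Without that library, or without Pcf11-OE2 replicate 2, 12 members were lower in Pcf11-OE1. With total counts alone these splits became 24 and 2, 31 and 2, 23 and 1, and 24 and 3. On that scale 41.2, 53.3, 49.5 and 46.5% of all features were called higher and 22.4, 16.6, 20.9 and 20.6% lower. Changes of at least 2-fold were rare: SEM1 was the only member called 2-fold higher in ΔPcf11 and ECM29 in each of the other 3 strains, while PRE4 in Pcf11-OE1 was the only member called 2-fold lower. A test for any difference among the 5 strains called 36 of 38 members, beside 90.1% of all features, and RPT1 and RPT3 were the exceptions, with edgeR adjusted p of 0.0941 and 0.289.

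**Figure D2:**
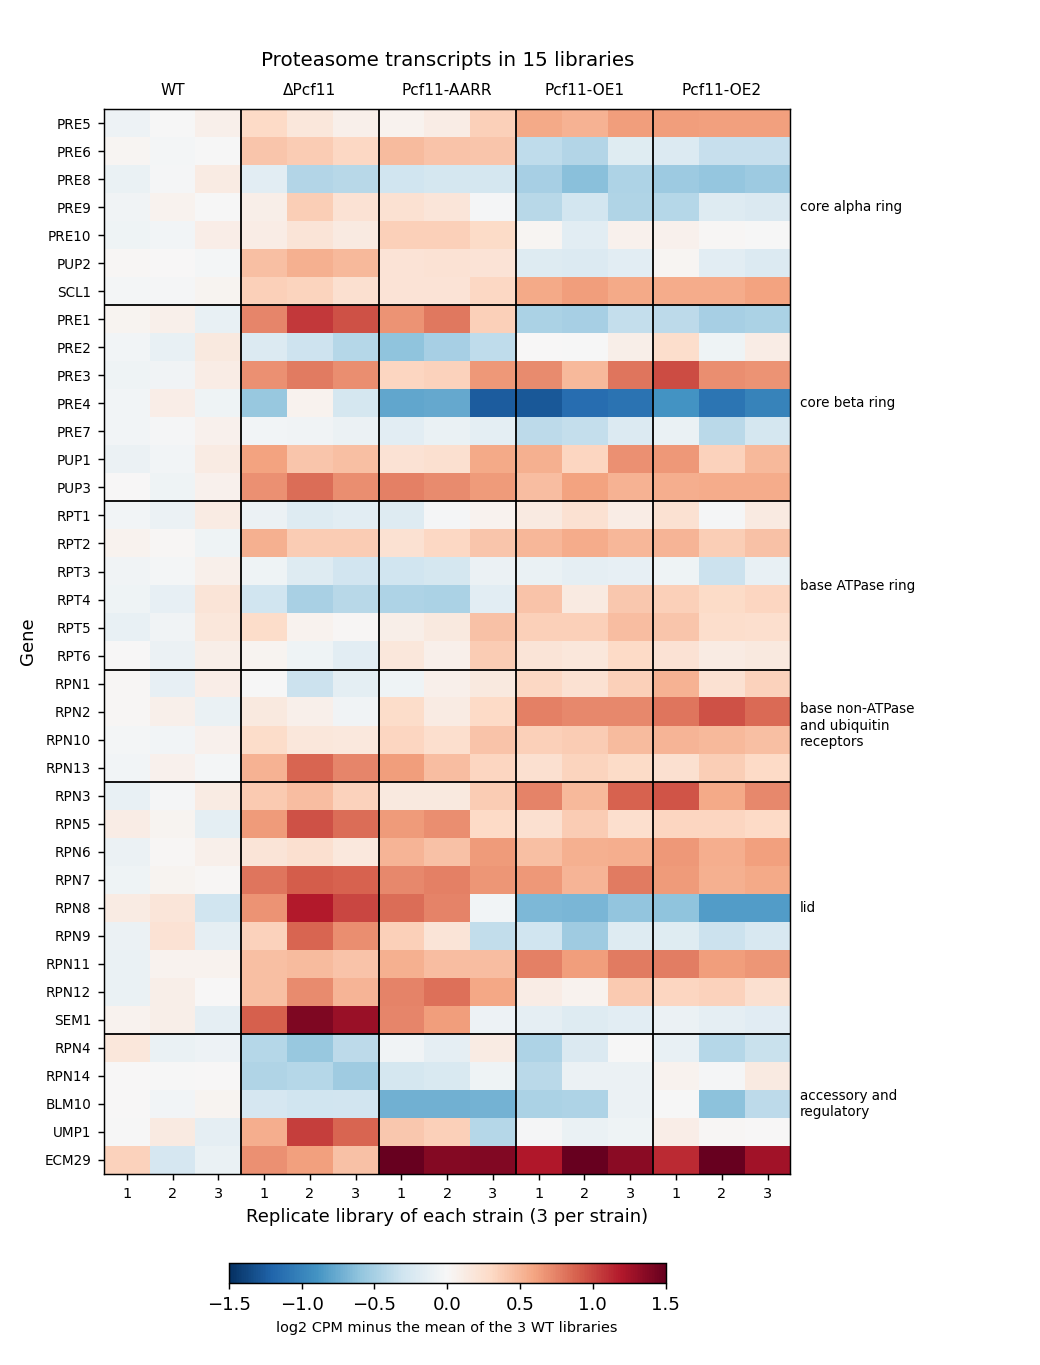
Log2 CPM of each gene minus the mean of its 3 WT libraries, for the 15 libraries grouped by strain (columns) and genes grouped by role (rows). Red is higher than WT, blue is lower, and the colours end at 1.5 in each direction. The lid rows are red in ΔPcf11, where 8 of 9 were called higher, PRE4 is blue in Pcf11-AARR and both overexpression strains, and RPN8 and PRE1 turn from red to blue between the left and the right strains.

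In the core alpha ring, which gates the core, 3 of 7 genes were called higher and 1 lower in ΔPcf11, 4 and 1 in Pcf11-AARR, 2 and 3 in Pcf11-OE1, and 2 and 3 in Pcf11-OE2. These counts stand beside 33.2 to 35.6% of all features higher and 29.2 to 32.0% lower over the same comparisons. PRE6, an alpha ring subunit with no overlapping gene, gave 179, 172 and 174 CPM in WT. It gave 233, 227 and 217 CPM in ΔPcf11, and 242, 236 and 233 CPM in Pcf11-AARR. In Pcf11-OE1 it gave 134, 129 and 154 CPM, and in Pcf11-OE2 151, 138 and 138 CPM. The groups did not overlap: both mutant strains were above WT and both overexpression strains below it. The log2 fold changes against WT were 0.37, 0.44, -0.33 and -0.30, each ± 0.09 (SE), with edgeR adjusted p of 0.0022, 0.000544, 0.00412 and 0.00866. With total counts alone both calls in the overexpression strains were lost.

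SCL1 and PRE5, also alpha ring subunits, were instead highest in the overexpression strains. SCL1 was at 136 to 143 CPM in WT, 164 to 177 CPM in ΔPcf11 and 204.6 to 213.7 CPM over Pcf11-OE1 and Pcf11-OE2. ERG4, which covers 58.3% of SCL1 on the opposite strand, had log2 fold changes of 0.49 in both overexpression strains, beside 0.59 and 0.57 for SCL1. PRE5, overlapped over 8.7%, rose by a log2 fold change of 0.57 in Pcf11-OE1 and 0.62 in Pcf11-OE2, and its values of 0.19 and 0.18 in ΔPcf11 and Pcf11-AARR did not pass the test. YMR315W, which shares those bases with PRE5, changed by 1.16, 1.18, 0.80 and 1.18 against WT. PRE8 was lower than in WT in every strain, with log2 fold changes of -0.34, -0.28, -0.53 and -0.56, although with total counts alone the value in Pcf11-AARR turned to 0.0865 and those in ΔPcf11 and Pcf11-OE1 were not called. Its overlapping neighbour UTP14 moved the other way, by 0.96 to 1.66. PRE9, the 1 alpha subunit that yeast can live without, was lower in the overexpression strains at -0.38 and -0.28, calls that total counts alone ended, and LSB1, which shares 12.1% of PRE9, changed there by -0.60 and -0.45. PUP2 was higher in ΔPcf11 by 0.49, beside 0.40 for GCN5 on its opposite strand, and PRE10 was called in Pcf11-AARR against WT only, at 0.33, beside 0.48 for PRT1, which shares 13.5% of it.

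In the core beta ring, 4 of 7 genes were called higher and 1 lower in ΔPcf11, 4 and 2 in Pcf11-AARR, and 3 and 3 in each overexpression strain, beside 33.2 to 35.6% of all features higher and 29.2 to 32.0% lower. PRE3, the beta subunit with the caspase-like site and no overlapping gene, gave 67.2, 67.6 and 75.8 CPM in WT. It gave 113 to 120 CPM in ΔPcf11, 87.3 to 110 CPM in Pcf11-AARR, 98.5 to 122 CPM in Pcf11-OE1 and 112 to 138 CPM in Pcf11-OE2. Every library of the other strains was above every WT library. The log2 fold changes were 0.72, 0.45, 0.67 and 0.79, each ± 0.12 (SE), with edgeR adjusted p of 0.000105, 0.00412, 0.000154 and 4.23e-05. PUP3, a structural beta subunit, was higher by 0.75, 0.70, 0.53 and 0.55, and PUP1, which carries the trypsin-like site, by 0.49, 0.35, 0.52 and 0.50.

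PRE1, a beta subunit without a proteolytic site and overlapped over only 4.73% of its length, moved in opposite directions. It gave 119, 122 and 107 CPM in WT and 192, 241 and 225 CPM in ΔPcf11. It gave 185, 200.5 and 148 CPM in Pcf11-AARR, and 81.8 to 90.2 CPM over all 6 overexpression libraries. All mutant libraries were above and all overexpression libraries below the 3 WT libraries. The log2 fold changes were 0.92, 0.62, -0.45 and -0.46, each ± 0.12 (SE), and edgeR's adjusted p was at most 0.00362. With total counts alone the calls in both overexpression strains were lost.

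Beside PRE1, the beta subunits PRE2, PRE4 and PRE7 had lower calls. PRE7 was called in the overexpression strains at -0.32 and -0.25, both lost with total counts alone, and ERD2, which covers 65.1% of it on the opposite strand, changed by -0.58 and -0.52. PRE2 gave 752, 716 and 855 CPM in WT, and 576 to 671 CPM in ΔPcf11 and 509 to 595 CPM in Pcf11-AARR, both below every WT library. Its log2 fold changes were -0.31 and -0.49 there, and 0.02 and 0.11 in the overexpression strains. FHL1, which covers 40.8% of PRE2 on the opposite strand, changed by 0.27, 0.14, 0.52 and 0.25. The call in ΔPcf11 was lost without WT replicate 3, without ΔPcf11 replicate 2 or 3, or with total counts alone, which also ended the call in Pcf11-AARR.

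PRE4 gave 675, 739 and 664 CPM in WT, and 404, 405 and 290.5 CPM in Pcf11-AARR. It gave 286 to 320 CPM in Pcf11-OE1, 324 to 373 CPM in Pcf11-OE2, and a wide 466 to 719 CPM in ΔPcf11, which overlapped WT. The log2 fold changes of -0.92, -1.18 and -0.995 in the first 3 of these, each ± 0.16 (SE), had edgeR adjusted p of 0.000125, 1.1e-05 and 6.13e-05. YMR31, a mitochondrial gene on the opposite strand, shares 717 bases with PRE4 and changed by -1.03, -1.45 and -1.21 in the same strains. At the read density YMR31 has on average, those shared bases alone would yield 102% of the counts of PRE4 in WT, so that the level and the change of PRE4 cannot be told apart from those of YMR31.

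The base ATPase ring unfolds substrates. Of its 6 genes 1 was called higher and 1 lower in ΔPcf11 and in Pcf11-AARR, and 3 and 2 were called higher in Pcf11-OE1 and Pcf11-OE2, beside 33.2 to 35.6% of all features higher and 29.2 to 32.0% lower. RPT2, an ATPase that opens the core gate and has no overlapping gene, was at 400 to 436 CPM in WT, 544 to 605 CPM in ΔPcf11, 490 to 558 CPM in Pcf11-AARR and 542 to 616 CPM over the overexpression strains. All 12 of those libraries were above WT, with log2 fold changes of 0.43, 0.32, 0.52 and 0.44. RPT4 gave 1371, 1314 and 1646 CPM in WT, 1027 to 1168 CPM in ΔPcf11, 1032 to 1293 CPM in Pcf11-AARR, and 1578 to 1939 CPM over the overexpression libraries, where the lowest lay within the WT range. Against WT, RPT4 changed by -0.41 and -0.36 in ΔPcf11 and Pcf11-AARR and by 0.32 in both overexpression strains, where edgeR's adjusted p was 0.0471 in Pcf11-OE1 and 0.0548 in Pcf11-OE2. HNT3, which covers 48.1% of RPT4 on the opposite strand, changed by -0.23, -0.44, -1.02 and -1.10, and at its average density the shared bases would yield 7.88% of the counts of RPT4 in WT. The call in ΔPcf11 was lost without WT replicate 3, without ΔPcf11 replicate 2 or 3, and with total counts alone. The call in Pcf11-AARR was lost without WT replicate 3, without Pcf11-AARR replicate 1 or 2, and with total counts alone, where the value turned to 0.0015, and the call in Pcf11-OE1 was lost without most single libraries, WT replicates 1 and 2 among them. RPT5, which has no overlapping gene, was higher in the overexpression strains by 0.39 and 0.31, and RPT6 passed the test in no strain against WT.

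RPN2 and RPN1, the scaffolds of the base, were higher in the overexpression strains, RPN1 by 0.30 and 0.37, calls that were lost without WT replicate 2 or several other single libraries. DAP2, which shares 3.93% of RPN1, changed there by 0.42 and 0.38. VMA16, which covers 18.3% of RPN1 on the opposite strand, changed there by 0.02 and 0.12. RPN2 gave 546, 569 and 502 CPM in WT, 520.3 to 594.9 CPM in ΔPcf11 and 587 to 660 CPM in Pcf11-AARR. It gave 911, 890.4 and 886 CPM in Pcf11-OE1 and 936, 1044 and 971 CPM in Pcf11-OE2. The overexpression libraries stood clear of the other 9. RPN2 rose by a log2 fold change of 0.73 ± 0.10 (SE) in Pcf11-OE1 and 0.87 ± 0.10 in Pcf11-OE2, with edgeR adjusted p of 1.68e-05 and 3.81e-06, and was at 0.06 and 0.23 in ΔPcf11 and Pcf11-AARR, neither called. SEC28, which covers 18.4% of RPN2 on the opposite strand, changed by 0.02 and 0.11 in the overexpression strains. The ubiquitin receptors RPN10 and RPN13 were called higher in both overexpression strains as well, RPN10 by 0.40 and 0.48 and RPN13 by 0.29 and 0.30. RPN10 lies inside the long feature with faulty coordinates, and PPX1, which covers 63.8% of it on the opposite strand, changed there by 0.35 and 0.47. URA4, which covers 77.7% of RPN13 on the opposite strand, changed by 0.33 in ΔPcf11 and by -0.10 in both overexpression strains. RPN13 was highest in ΔPcf11, at 425 to 541 CPM against 287 to 311 CPM in WT.

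The lid, which holds the deubiquitinase, had the highest share of called genes in ΔPcf11. There 8 of its 9 genes were called higher and the median over the 9 was 0.65, beside 34.4% of all features and their median of 0.07, while RPN6 at 0.20 was not called. In Pcf11-AARR 7 of 9 were called higher, beside 33.2% of all features, with a median of 0.53. In the overexpression strains 4 and 5 of 9 were called higher and RPN8 alone was called lower, and 35.6% and 33.7% of all features were higher there. Summed over the lid, levels were 2879 to 3213 CPM in WT, 4732 to 5964 CPM in ΔPcf11, 3681 to 4739 CPM in Pcf11-AARR, 3550 to 3706 CPM in Pcf11-OE1 and 3559 to 3795 CPM in Pcf11-OE2. The sums of all 4 strains were above those of WT, and the sum is dominated by RPN5 and SEM1.

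RPN7, a lid subunit with no overlapping gene, gave 167, 178 and 176 CPM in WT and 303 to 327 CPM in ΔPcf11. It gave 274 to 294 CPM in Pcf11-AARR, 248 to 299 CPM in Pcf11-OE1 and 251 to 270.3 CPM in Pcf11-OE2. All 12 libraries were above WT. The log2 fold changes were 0.86, 0.71, 0.66 and 0.58, each ± 0.09 (SE), with edgeR adjusted p of 1.71e-06, 9.61e-06, 1.72e-05 and 6.35e-05. RPN6, a lid scaffold also without an overlapping gene, was higher by 0.53, 0.51 and 0.60 in Pcf11-AARR and the overexpression strains. RPN11, the deubiquitinase, was at 264 to 292 CPM in WT and 378 to 484 CPM elsewhere, with log2 fold changes of 0.45, 0.49, 0.72 and 0.69, while SAD1 on its opposite strand, which shares 52.2% of RPN11, changed by 0.51, 0.48, 0.58 and 0.53.

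RPN5, the most abundant lid transcript after SEM1 per kilobase and also free of overlap, gave 1069, 1022 and 894 CPM in WT and 1539 to 1919 CPM in ΔPcf11. It rose by 0.81 ± 0.13 (SE) there and by 0.55 ± 0.13 in Pcf11-AARR, and its values of 0.29 and 0.31 in the overexpression strains did not pass the test. RPN12 was among the 3 highest members in Pcf11-AARR at 0.72 ± 0.11, with 127 to 150 CPM against 79.4 to 89.9 CPM in WT and an edgeR adjusted p of 4.52e-05. HXK1 on its opposite strand changed by 0.14, and at its average density would yield 50.3% of the counts of RPN12 in WT. RPN3 was higher in ΔPcf11 by 0.40 and in the overexpression strains by 0.71 and 0.75, while GPA2, which shares 1.59% of it, changed by -1.21 in ΔPcf11 and by -1.30 and -0.87 in the overexpression strains. RPN9 was called in ΔPcf11 alone of the comparisons with WT, at 0.65, where BNA7 on its opposite strand changed by 0.57 and at its average density would yield 74.2% of the counts of RPN9 in WT.

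SEM1 gave 652, 670.1 and 572 CPM in WT and 1168, 1662 and 1546 CPM in ΔPcf11. It gave 1044, 970 and 596 CPM in Pcf11-AARR and 551 to 591 CPM over the overexpression libraries. The third Pcf11-AARR library lay inside the WT range, and the other 2 above it. SEM1 rose by a log2 fold change of 1.21 ± 0.18 (SE) in ΔPcf11, with an edgeR adjusted p of 4.51e-05, and by 0.46 ± 0.18 in Pcf11-AARR, with 0.0344, a call that was lost without any 1 of the 3 WT replicates and without Pcf11-AARR replicate 1 or 2. CDC40, which shares 70.2% of SEM1 on the opposite strand, changed by 1.05 in ΔPcf11, and at its average density the shared bases would yield 8.69% of the counts of SEM1 in WT.

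RPN8, the partner of RPN11 in the deubiquitinase pair, gave 353, 368 and 264 CPM in WT and 519, 739 and 650.0 CPM in ΔPcf11. It gave 578, 545 and 315 CPM in Pcf11-AARR, where the third library again fell among WT. It gave 201 to 216 CPM in Pcf11-OE1 and 182 to 214 CPM in Pcf11-OE2, all below WT. The log2 fold changes were 0.95, 0.55, -0.67 and -0.77, each ± 0.20 (SE), with edgeR adjusted p of 0.000811, 0.0265, 0.0082 and 0.00355. The call of RPN8 in Pcf11-AARR was likewise lost without WT replicate 3 or Pcf11-AARR replicate 1 or 2, and its call in Pcf11-OE1 with total counts alone. GCD1, which overlaps 51.8% of RPN8 on the opposite strand, changed by 0.82, 0.52, -0.58 and -0.69. At the average density of GCD1 the shared bases would yield 20.1% of the counts of RPN8 in WT.

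Pcf11-AARR replicate 3 stood apart from its group for several members at once. Beside SEM1 and RPN8, it was the lowest of its 3 libraries for PRE1, PRE4, RPN5 (1221 CPM against 1539 and 1610), RPN9 (85.6 CPM against 141 and 126) and UMP1 (208 CPM against 367 and 356). Replicate 3 was also the lowest of the WT libraries for each of these 7 genes, and within ΔPcf11 replicate 2 was the highest, an observation made after the values were seen. Depth, RNA quality or culture were not tested for a part in it. Without Pcf11-AARR replicate 3, 4 calls of Pcf11-AARR against WT were lost, those of SCL1, PUP2, PUP1 and RPT2, and RPT3, RPN14 and UMP1 were gained. Other calls near the threshold also ended without 1 or more single libraries: those of RPN3 in ΔPcf11 (without WT replicate 1), PRE8 in Pcf11-AARR (without WT replicate 3), RPN13 and BLM10 in Pcf11-OE1 (without WT replicate 1 or 3), and PRE9, RPT5, RPN13 and RPN12 in Pcf11-OE2 (without WT replicate 1).

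**Figure D3:**
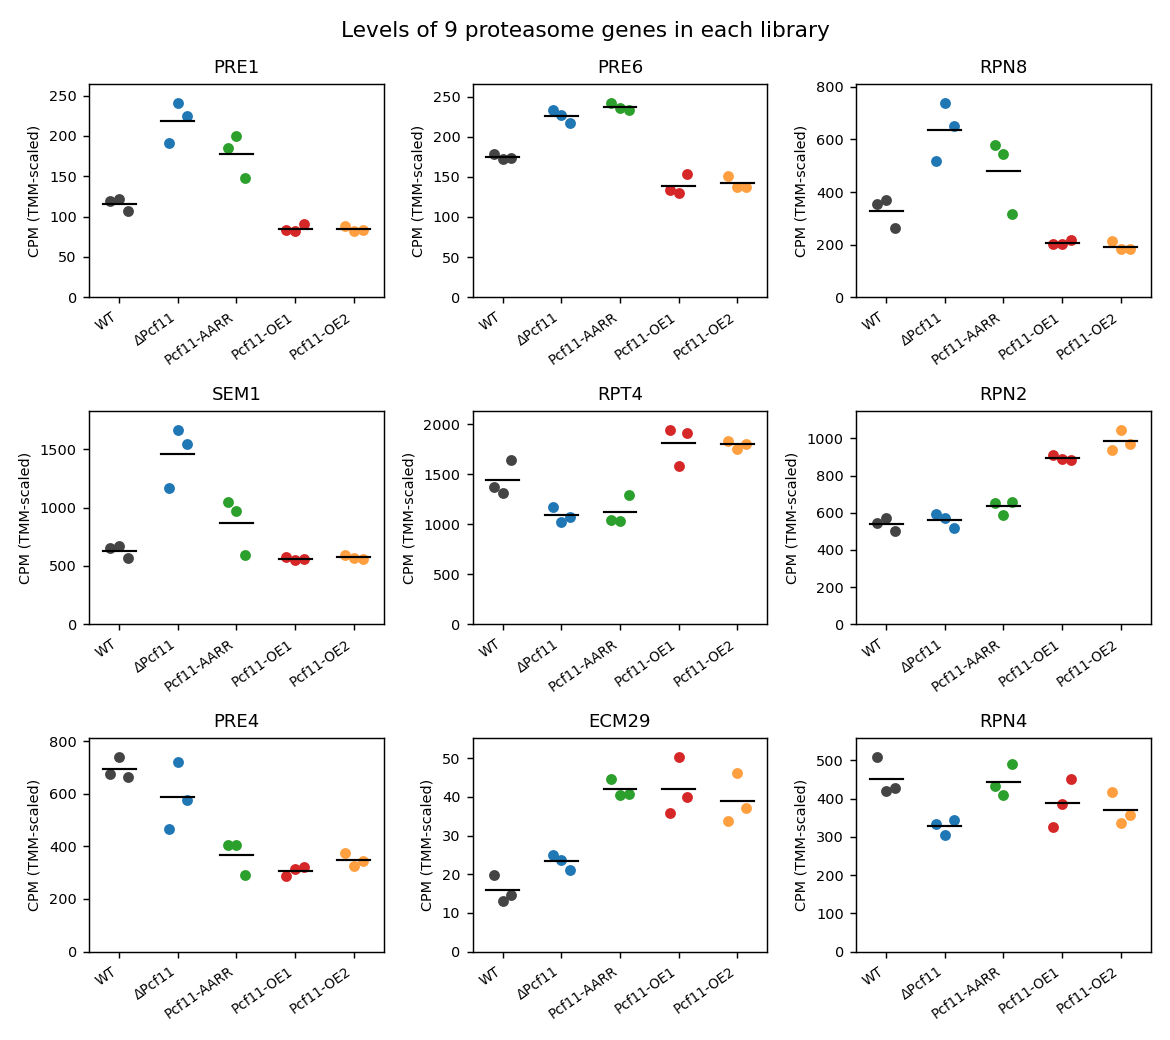
TMM-scaled CPM of 9 proteasome genes in the 15 libraries, 3 points per strain with the mean as a line and axes that start at 0. PRE1, PRE6 and RPN8 are above WT in ΔPcf11 and below it in both overexpression strains, RPN2 is highest in the overexpression strains, from 886 to 1044 CPM, and RPN4 is lower than WT in every ΔPcf11 library at 304 to 344 CPM.

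RPN4, the activator of the subunit genes, was called higher in no strain against WT on the TMM scale. It gave 508, 421 and 427 CPM in WT and 334, 304 and 344 CPM in ΔPcf11, where all libraries were below WT. It gave 433, 409 and 492 CPM in Pcf11-AARR, 326 to 450.3 CPM in Pcf11-OE1 and 336 to 417 CPM in Pcf11-OE2. RPN4 fell by 0.47 ± 0.13 (SE) on the log2 scale in ΔPcf11, with an edgeR adjusted p of 0.00697. The values of -0.02, -0.22 and -0.29 in the other strains did not pass the test, and with total counts alone the first became 0.35, with an edgeR adjusted p of 0.0305, and the second 0.0789. Without Pcf11-AARR replicate 3, and without some other single libraries, RPN4 was called lower in both overexpression strains. RPN4 was 0.44 ± 0.13 higher in Pcf11-AARR than in ΔPcf11 on the log2 scale, with an edgeR adjusted p of 0.0172. GPM2, which covers 33.5% of RPN4 on the opposite strand, changed by -0.66, -0.61, -0.95 and -0.91. The mRNA level says nothing of the amount of the short-lived Rpn4 protein.

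Among the accessory genes, ECM29 was the member with the largest rise against WT in 3 strains. It gave 19.8, 13.1 and 14.5 CPM in WT, 21.1 to 25.03 CPM in ΔPcf11, 40.4 to 44.7 CPM in Pcf11-AARR, 35.8 to 50.2 CPM in Pcf11-OE1 and 33.8 to 46.1 CPM in Pcf11-OE2. No library of these strains overlapped WT. ECM29 rose by log2 fold changes of 0.56, 1.41, 1.41 and 1.31, each ± 0.17 (SE), with edgeR adjusted p of 0.00826, 4.46e-06, 3.49e-06 and 8.53e-06. OCA5 on its opposite strand changed by 0.10, 0.38, 0.89 and 0.59, and at the average density of OCA5 the 648 shared bases would yield 68.2% of the few reads that ECM29 had in WT.

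BLM10 fell by 0.72 ± 0.14 (SE) on the log2 scale in Pcf11-AARR, with 149, 149 and 151 CPM against 246, 239 and 252 CPM in WT and an edgeR adjusted p of 0.000354. Its values in Pcf11-OE1 and Pcf11-OE2 were -0.33 and -0.31, of which the first was called by edgeR at an adjusted p of 0.0425 and lost with total counts alone, where it was -0.04. SEC4, which shares 0.638% of BLM10, changed by -0.46, -1.34 and -1.23 in Pcf11-AARR, Pcf11-OE1 and Pcf11-OE2. In the same strains id2298, which shares 4.65% of BLM10, changed by -1.20, -0.19 and -0.13, and SMC1 by -0.05, 0.24 and 0.15. UMP1, the chaperone that the maturing core degrades, was higher in ΔPcf11 at 405 to 571 CPM against 253 to 306 CPM in WT, a log2 fold change of 0.83 ± 0.18, where SMY2, which shares 13.9% of UMP1, changed by -1.03. RPN14, a chaperone of base assembly with no overlapping gene, gave 63.4, 62.9 and 63.5 CPM in WT and 46.2, 47.0 and 43.7 CPM in ΔPcf11, a log2 fold change of -0.47 ± 0.10 with an edgeR adjusted p of 0.0008.

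Pcf11-AARR and ΔPcf11 were also compared with each other. Of the 38 members, 5 were called higher in Pcf11-AARR and 6 lower, beside 18.4% and 21.2% of all features. The median was -0.06 over the members and -0.03 over all features. With total counts alone these turned to 0.17 and 0.19. There were then 15 members higher and 3 lower, beside 34.1% and 11.1% of all features. All 5 accessory genes were called: ECM29, RPN4 and RPN14 were higher by 0.85, 0.44 and 0.29, and UMP1 and BLM10 lower, with log2 fold changes of -0.67 and -0.44. The other calls were RPN6 and RPT6, higher by 0.33 and 0.27, and SEM1, PRE4, RPN9 and PUP2, with -0.75, -0.68, -0.56 and -0.28. The call of RPN14 was lost without any 1 ΔPcf11 replicate or without Pcf11-AARR replicate 3, that of BLM10 without ΔPcf11 replicate 3 or any 1 Pcf11-AARR replicate and with total counts alone, and that of RPN4 without ΔPcf11 replicate 2. UMP1, RPN9, PUP2 and RPT6 were not called in a fit of these 2 strains alone or in the authors' deposited table. The calls of RPN9, PUP2 and RPT6 were also lost without ΔPcf11 replicate 2 or 3 or Pcf11-AARR replicate 3. RPT6 was lost without any 1 WT replicate as well, and PUP2 without Pcf11-AARR replicate 1 or 2. With total counts alone PUP2 and RPN9 were not called. In all, 5 calls were lost without ΔPcf11 replicate 2 or 3 or Pcf11-AARR replicate 3, which left 2 or 3 members higher, and 3 lower without ΔPcf11 replicate 3.

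The overexpression strains against the mean of ΔPcf11 and Pcf11-AARR, a contrast that holds no WT library, shows where the members part. Here 13 members were higher and 17 lower with overexpression, beside 33.5% and 30.7% of all features. With total counts alone they were 13 and 15, beside 34.7% and 28.5%. Of the 23 members overlapped over at least 10 percent, 9 were higher and 13 lower, and of the other 15, 4 and 4. The median over the members was 0.07 and over all features 0.02. The lowest were RPN8 at -1.47 ± 0.14 (SE), PRE1 at -1.22 ± 0.08 and SEM1 at -0.99 ± 0.13, with edgeR adjusted p of 7.32e-07, 4.57e-08 and 9.55e-06. The highest were RPT4 at 0.71 ± 0.10, RPN2 at 0.65 ± 0.07 and PRE2 at 0.47 ± 0.08, with edgeR adjusted p of 1.71e-05, 2.08e-06 and 0.000168. Of the overlapping neighbours, GCD1 changed by -1.31 beside RPN8, PRP22 by -0.32 beside PRE1 and CDC40 by -0.76 beside SEM1. HNT3 changed by -0.73 beside RPT4, SEC28 by -0.28 beside RPN2 and FHL1 by 0.18 beside PRE2.

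By role, the alpha ring had 5 of 7 genes lower and 2 higher, the beta ring 4 lower and 1 higher, and the lid 6 lower and 3 higher. Of all features, 33.5% were higher and 30.7% lower in this contrast. The ATPase ring had 2 of 6 called, RPT1 and RPT4, both higher, and all 6 values were above 0. RPN1, RPN2 and RPN10 were higher and RPN13 lower. RPT4 and RPN8 lie near each other on the minus strand of chromosome XV, at chrXV:811951-813708 and chrXV:815445-816931, and were the highest and the lowest member of this contrast.

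**Figure D4:**
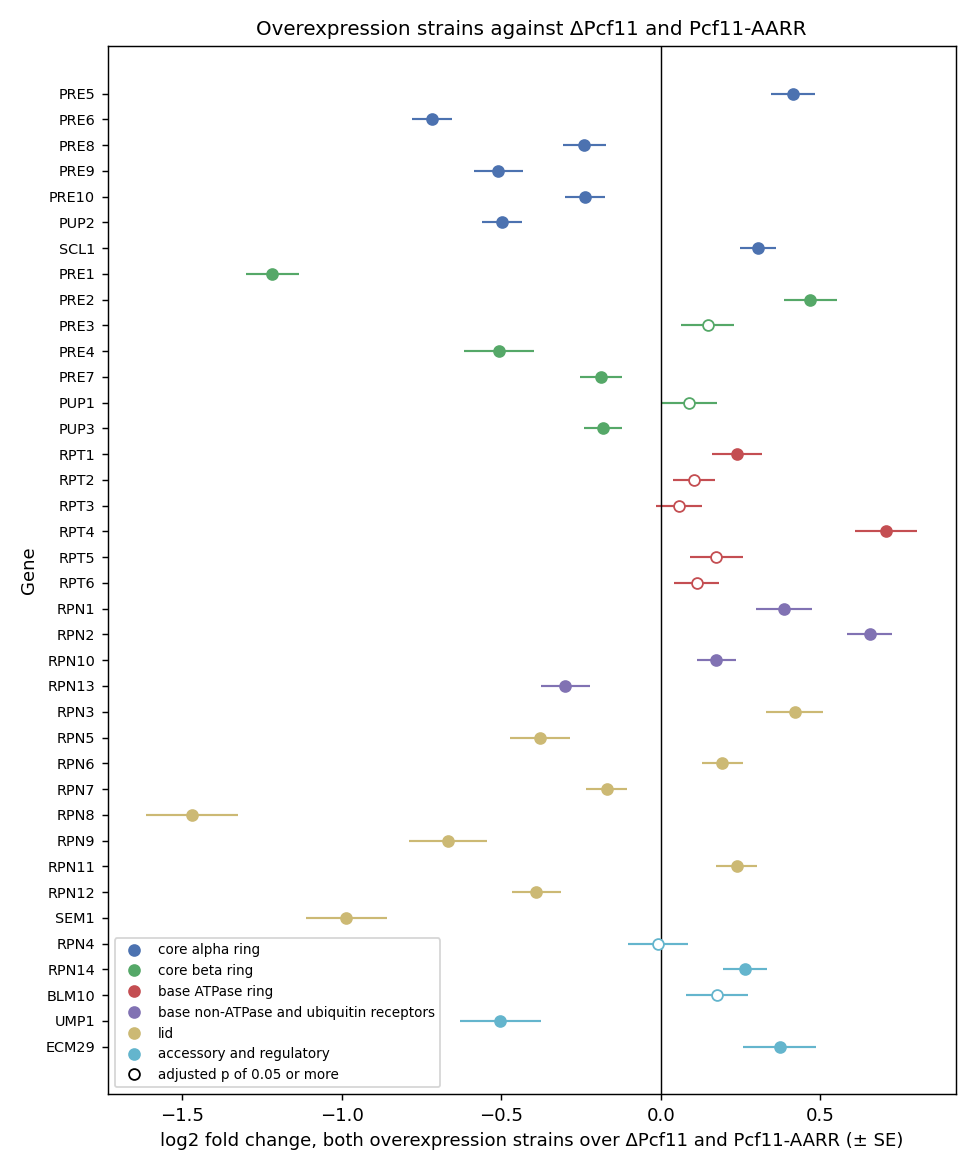
Log2 fold change of each gene (± SE) in the mean of both overexpression strains over the mean of ΔPcf11 and Pcf11-AARR, by role; open points did not pass the test. The 6 ATPase genes are all right of 0, while RPN8, PRE1 and SEM1 reach -1.47, -1.22 and -0.99.

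The overexpression strains differed in no member by the test, although PCF11 was 7.74 times lower in Pcf11-OE2 than in Pcf11-OE1. By edgeR 0 of 38 members were called, 1 had an unadjusted p under 0.05, and DESeq2 gave the same counts of 0 and 1. In all, 0.277% of features were called higher and 1.29% lower. For 4 uncalled members, RPN2, PRE4, RPN14 and UMP1, every Pcf11-OE2 library lay above every Pcf11-OE1 library. For 0 members did every Pcf11-OE2 library lie below. The share of all features that separate in this way was not computed. The members' log2 differences ran from -0.10 to 0.24, with a median of 0.03, SEs of 0.08 to 0.20 and a lowest edgeR adjusted p of 0.449. An interval of ± 2 SE reaches at most 0.40 to either side of a member's value. This interval is not adjusted for the number of features tested. A change of that size in the least precise member could therefore still have gone uncalled.

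The members with and without an exact PACE element had medians of 0.27, over 28 genes, and 0.35, over 10, in ΔPcf11 against WT. They had 0.23 and 0.26 in Pcf11-AARR, 0.25 and -0.115 in Pcf11-OE1, and 0.30 and 0.05 in Pcf11-OE2. In Pcf11-OE1, 13 of the 28 with the element were called higher and 6 lower, and 4 and 2 of the 10 without. Of all features, 35.6% were higher and 32.0% lower there. Among those with the same 9 letters, the lower included PRE1, PRE4, PRE6 and PRE8, and the higher included PRE3, RPN2, RPN7 and ECM29. With total counts alone the lower calls of PRE1, PRE6 and PRE8 were lost, and PRE4, which was not, shares its reads with YMR31. These are descriptions of the promoters shown above and not a test of Rpn4.

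Other genes of the ubiquitin and proteasome system were listed by function. Of 13 assembly and associated factors, 3 were called higher and 4 lower in ΔPcf11, 6 and 5 in Pcf11-AARR, 4 and 5 in Pcf11-OE1, and 4 and 6 in Pcf11-OE2, beside 33.2 to 35.6% of all features higher and 29.2 to 32.0% lower. CIC1, a factor found on the core and in ribosome assembly, was the highest in every strain, with log2 fold changes of 1.99, 2.24, 1.73 and 1.21. SPG5, which acts on the proteasome in stationary phase, was at -1.86, -1.60, -1.33 and -1.45 and the lowest in every strain but Pcf11-OE1, where TMA17, a base assembly chaperone, was at -1.51.

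Of 21 genes for ubiquitin, its conjugation, shuttle receptors and Cdc48 with its cofactors, 9 were higher and 2 lower in ΔPcf11, 7 and 5 in Pcf11-AARR, and 10 and 2 in each overexpression strain, beside 33.2 to 35.6% of all features higher and 29.2 to 32.0% lower. DSK2, a shuttle that brings ubiquitinated proteins to the proteasome, had log2 fold changes of 1.06, 1.51, 2.18 and 2.17, the highest of the list in the last 3 strains. In ΔPcf11 MUB1, a partner of the ligase Ubr2 that marks Rpn4 for degradation, was the highest at 1.49, and SHP1, a Cdc48 cofactor, the lowest at -0.48. The lowest were UBA1, the ubiquitin-activating enzyme, at -0.45 in Pcf11-AARR, and DOA4, a deubiquitinase, at -0.74 and -0.59 in the overexpression strains. Of 4 regulators tied to RPN4, HSF1, the heat shock factor, was higher in ΔPcf11 and both overexpression strains by 0.27, 0.72 and 0.67, and PDR1, a drug resistance activator, was lower in Pcf11-AARR at -0.45.

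Pcf11 CLIP gave peaks on a minority of the members in both IPs. The peaks, 1332 in IP 1 and 1707 in IP 2, were called and assigned to genes by the authors. A peak on the member's own strand was found in both IPs for 4 of 38 members, UMP1, SEM1, RPN1 and PRE9, beside 4.94% of the 6501 features, and in at least 1 IP for 19 members, beside 26.1%. The level in the inputs moves with this: 379 features had an input FPKM at or above the members' median of 209, and of these 18.7% had a peak in both IPs and 53.8% in at least 1. Of the 19 members at or above that level, 2 had a peak in both IPs and 12 in at least 1.

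On UMP1 the peaks spanned chrII:581592-582196 and chrII:581593-582196 on the minus strand in the coordinates of the authors' files, with summits 123 and 126 bases past the start codon and heights of 30 and 48 reads. On SEM1 the summits lay 169 and 159 bases past the start codon, with heights of 18 and 48, and on RPN1 1991 and 2027 bases past it, with heights of 26 and 41. The summits on PRE9 lay 1510 and 1415 bases past the start codon, beyond the end of its feature, which is 1179 bases long. RPT3 was counted for a peak in IP 2 alone. Its summit lay 4182 bases past the start codon, also beyond the feature, which spans 1758 bases. For the 6 members with a peak in IP 1 alone, the summits lay 62 bases past the start codon on PRE5, 74 on PRE1, 97 on PRE4, 159 on RPT4, 619 on PRE7 and 2781 on RPN2. Besides RPT3, the summits in IP 2 alone lay 114 bases past the start codon on RPT2, 308 on PRE10, 672 on PRE6 and 678 on RPN8. They lay 723 bases past it on PUP1, 821 on RPN11, 1098 on RPT5, and 1470 and 2463 on RPN3, whose feature spans 2008 bases. Peaks on the opposite strand were found for 5 members and were at most 11 reads high. No CLIP library of WT or the mutants was analysed here, so the peaks bear on no comparison of strains.

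In the inputs, which kept strand, 98.9% and 99% of the reads on the 37 matched members were on the gene's own strand. ECM29 had an FPKM of 79.9 and 82.5 there and 576 and 558 reads on its own strand, and BLM10 had 103 and 102.5. SEM1 had 192 and 188, and RPT4 229 and 211. The spread between members was thus narrower in the inputs than in the WT RNA-seq libraries, where SEM1 and RPT4 were at the top and ECM29 at the bottom. The 2 kinds of library differ in preparation, strain and counting, and the part of each in this difference was not tested.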

How the data were processed

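The data are 15 RNA-seq libraries of 5 yeast strains and 4 CLIP libraries. Reads were trimmed with fastp 0.23.0, per the submitters' processing notes; no aligner, counter or test is named there. Raw counts per feature were deposited in 2 tables whose WT counts were equal for all 6863 shared features. The authors' deposited log2 fold changes and FDR values (adjusted p-values) were used as an alternative, and mapped percent, input FPKM and peak heights (a read-depth signal), made by the authors, as described in the text.

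Counts of all 15 libraries were tested in 1 fit with edgeR 4.0.16 in R 4.3.3 (filterByExpr, TMM, robust quasi-likelihood F test, Benjamini-Hochberg at 0.05), over 7 contrasts. The SE is the log2 fold change over the root of F. Replicates differed by 36.0 to 362 times counting noise (chi-square per degree of freedom). Input genes were matched by coordinates. The p-values measure the spread between these cultures. Members and lists were chosen with earlier results of these data known. Named were RPN4, the 3 highest and 3 lowest called members per comparison, the extremes per kilobase, members that went against their role, and the highest and lowest called gene of each related list; other members were named after their values were seen. The promoter window was cut from the R64 genome. Alternatives were DESeq2 1.42.0, other scaling, no filter, other sets of libraries, a replicate block, and other rules for peaks and the motif.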

Additional observations from a re-analysis of the deposited data

How the results depend on the processing

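Each setting was changed alone. With total counts as the only scale, members called lower fell to 2, 2, 1 and 3 in the comparisons with WT (ΔPcf11, then Pcf11-AARR, then OE1, then OE2), those called higher in Pcf11-AARR rose to 31, and the members' medians became 0.41, 0.60, 0.50 and 0.50. Over all features, 22.4, 16.6, 20.9 and 20.6% were then lower, 53.3% were higher in Pcf11-AARR, and the medians were 0.21, 0.41, 0.34 and 0.28. In Pcf11-AARR against ΔPcf11, 15 members were higher and 3 lower on this scale, beside 34.1% and 11.1% of all features. The members' median was reversed there at 0.17, and in Pcf11-OE2 against Pcf11-OE1 it reversed to -0.0052. Single values in Pcf11-AARR against WT that reversed were RPN4 at 0.35, RPT4 at 0.0015 and PRE8 at 0.0865. With 1 fit for each count table the median in ΔPcf11 was 0.20. The authors' deposited tables gave a median of 0.18 in Pcf11-AARR and 3 members lower in Pcf11-AARR against ΔPcf11, as did a fit of these strains alone. Counting peaks in at least 1 IP gave 19 members. The other counts and medians under these settings, DESeq2, RLE factors and no filter stayed within 1.5 times of the main count or within 1 SD.

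Leaving out 1 library at a time, members called higher ranged from 18 to 20, 15 to 19, 13 to 17 and 13 to 18 against WT, and lower from 3 to 8, 3 to 7, 7 to 12 and 5 to 11. The medians ranged from 0.20 to 0.29, 0.18 to 0.27, 0.11 to 0.23 and 0.15 to 0.23. In Pcf11-AARR against ΔPcf11 the ranges were 2 to 6 higher, 3 to 8 lower and -0.09 to -0.02, between the overexpression strains -0.0089 (without Pcf11-OE2 replicate 1) to 0.0687, and for overexpression against the mutants 9 to 14 higher, 15 to 17 lower and 0.0164 to 0.10. The lower calls rose to 8, 12 and 11 in ΔPcf11, Pcf11-OE1 and Pcf11-OE2 without Pcf11-AARR replicate 3. They were also 12 in Pcf11-OE1 without Pcf11-OE2 replicate 2. The cause was not tested, and the share of all features called was not computed for the fits without 1 library.

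The replicate numbers do not pair the libraries: correlations of same-numbered pairs ran from -0.46 to 0.36, with 6 of 30 over 0.1. With the replicate block no count of members moved by over 1.5 times, and no median by more than 0.00179; the members called were 19 higher and 5 lower in ΔPcf11 against WT. PUP2 in Pcf11-AARR and RPT6 in Pcf11-AARR against ΔPcf11 were not called with the block, and RPT4 in Pcf11-OE2 was. ECM29, with the lowest counts, rests on the fewest reads. Shared reads with neighbours, the unstated strand setting and the scale limit the single values.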
